A study of Mus musculus with 6 samples.

Results

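The genes described here are 34 genes of the endoplasmic reticulum (ER) stress response, taken as the rows of the count table with those symbols. All 34 were among the 24063 rows of the table, and all 34 passed the filter on low counts that left 13572 genes for testing. They were measured by RNA-seq of liver tumors from 3 WT and 3 Nr2e3-/- mice. Both groups were male and labelled C57BL/6, the study's methods naming the WT mice as C57BL/6J, and had been injected at 15 days of age with diethylnitrosamine (DEN), a carcinogen that hepatocytes activate, at 25 mg per kg, and the tumors were taken at the 24-week time point. The controls therefore carried DEN-induced tumors too, and no untreated or tumor-free liver enters these comparisons. Nr2e3 encodes an orphan nuclear receptor, and its deletion was not specific to a cell type. The question addressed was which ER stress response genes differed between tumors with and without Nr2e3.

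The ER folds and modifies secreted and membrane proteins, and the hepatocyte, which secretes most plasma proteins, carries a large amount of it. When unfolded proteins accumulate, the sensors IRE1 (Ern1), PERK (Eif2ak3) and ATF6 (Atf6) are released from the chaperone BiP (Hspa5) and start the unfolded protein response. IRE1 splices the Xbp1 transcript, ATF6 is cut to a transcription factor, and PERK phosphorylates eIF2α, which lowers translation and raises ATF4. XBP1 and ATF6 act mainly on chaperones, folding enzymes and ER-associated degradation (ERAD), whereas ATF4 and CHOP (Ddit3) act on amino acid and stress genes that form the integrated stress response. Counts per gene do not tell spliced from unspliced Xbp1 and do not show the cleavage or phosphorylation of these proteins, so the values below are transcript levels only.

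Values are given as CPM, counts per 1000000 after scaling each library by edgeR's TMM factor, in the order of replicates 1, 2 and 3 of each genotype. Library totals were 25250090, 28690279 and 27380138 counts in WT and 15376261, 28336305 and 19372418 in Nr2e3-/- tumors, so that 3 counts corresponded to between 0.101 and 0.199 CPM. The lowest member count in any library was 37 (Atf3) and the highest 68933 (Hspa5), and depth was not limiting for most members. Nr2e3 itself had 0 counts in all 6 libraries, which leaves its level below those floors in both genotypes, and the genotype labels could not be checked from it. Nr2e3-/- replicate 1 stood apart from the other Nr2e3-/- libraries. On the first principal component of log2 CPM, which held 52.3% of the variance, it lay at -14.2, beside the WT libraries (-31.5 to -23.3) and away from Nr2e3-/- replicates 2 (53.0) and 3 (43.4). On the second component, which held 23.7%, it lay at -37.7, the lowest of the 6 libraries. The WT libraries were at 0.818 to 23.3 there, and Nr2e3-/- replicates 2 and 3 at 25.8 and -22.8. Values without Nr2e3-/- replicate 1 are therefore given beside those it moved. Fold changes are edgeR's fitted log2 ratios of Nr2e3-/- over WT with their standard error (SE). The tissue was bulk tumor, so that a change in the number of cells of a type and a change in RNA per cell cannot be told apart. Nothing in the labels says that each library is a different mouse, and p-values measure the spread between these libraries.

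ER chaperones were higher in all 3 Nr2e3-/- tumors, whereas the sensor and transcription factor genes split. Xbp1 and the amino acid stress genes Chac1 and Asns were high in Nr2e3-/- replicates 2 and 3 and stayed at or near WT levels in replicate 1, and Atf6, Atf4, Ddit3 and Creb3l3 had log2 fold changes between -0.28 and 0.13. Of these, Atf4 was above the WT libraries in replicates 2 and 3 and below them in replicate 1. Without replicate 1 its log2 fold change was 0.37. The summed level of the 34 genes was 7666 to 9825 CPM in the WT libraries and 11573 to 14911 CPM in the Nr2e3-/- libraries. The fitted log2 fold change of Nr2e3-/- over WT was above 0 for 31 of 34 members, with 50.8% of all genes tested above 0, and its median over the members was 0.52, with 0.01 over all genes tested.

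No member passed an adjusted p-value of 0.05 in edgeR's quasi-likelihood F test over all 6 libraries, where 13 genes in all did (0.0958%). At an unadjusted p-value under 0.05, 19 members were higher (background 11.8%) and 1 member, Trib3, was lower (background 9.72%), and 21.5% of all genes passed this threshold in either direction. In 17 members every Nr2e3-/- library was above every WT library, which held for 13.9% of all genes, and in Trib3 every Nr2e3-/- library was below, which held for 12.9%. An exact two-sided permutation of 3 libraries against 3 has 0.1 as its smallest p-value, so it was not used for calls. Other tools made calls on the same 6 libraries. DESeq2 called 17 members at an adjusted p-value under 0.05, all higher in Nr2e3-/- tumors (background 4.93%), and limma-voom with sample quality weights called 16 of those 17 (background 9.48%), leaving out Sdf2l1. Without Nr2e3-/- replicate 1, edgeR called 12 members, all higher (background 12.2%). Of these, 9 were also called by DESeq2 and limma-voom, namely Hspa5, Creld2, Dnajb9, Dnajb11, Dnajc3, Syvn1, Eif2ak3, Xbp1 and Chac1, and the other 3 were Ern1, Asns and Ppp1r15a. Without WT replicate 1, which had the highest WT level of 25 members (background 33.0%), 0 members and 0 genes were called at an adjusted p-value under 0.05, and 20 members were higher at an unadjusted p-value under 0.05 (background 8.44%).

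**Figure D1:**
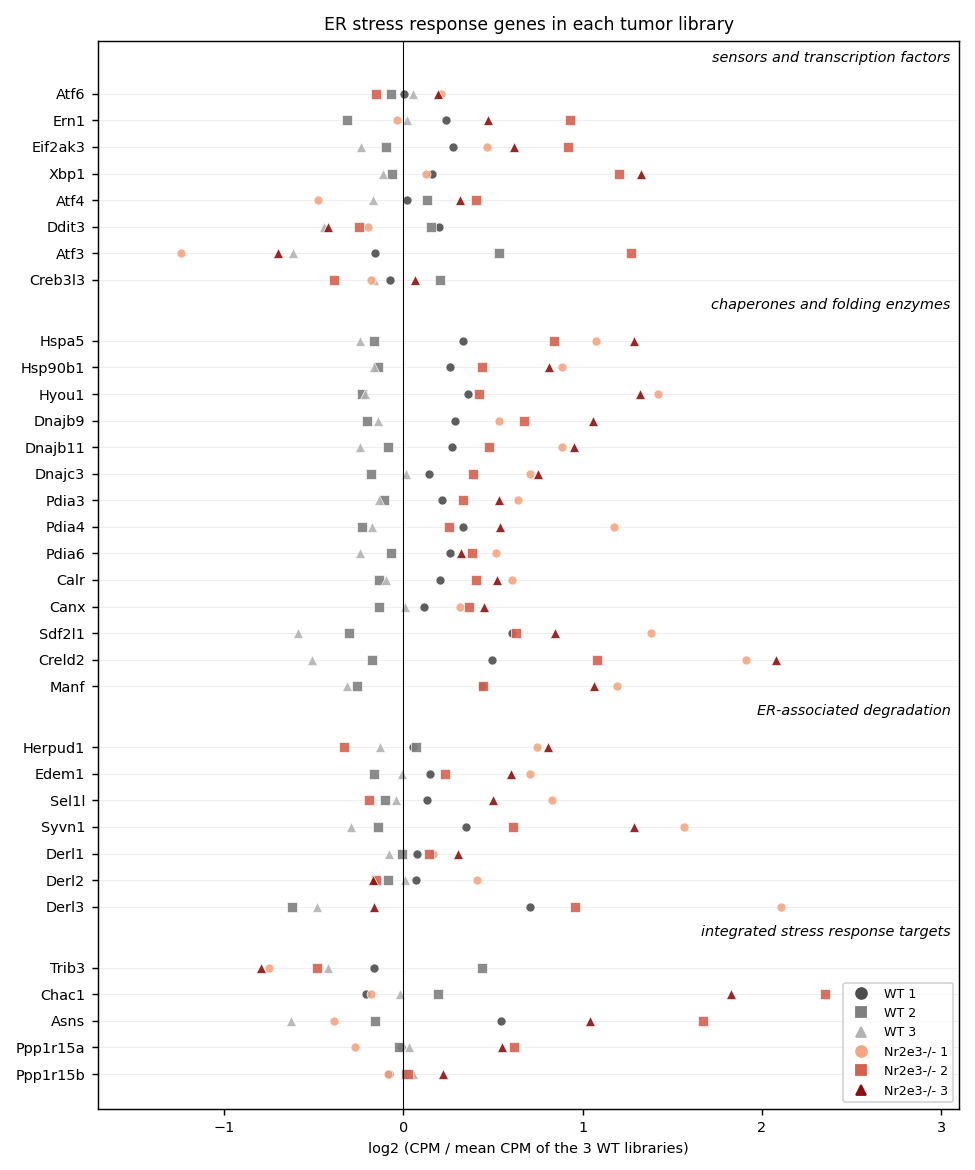
Each row is 1 gene and each symbol is 1 library (grey for WT, red for Nr2e3-/-, shape for the replicate number), and the x axis is log2 of the CPM over the mean CPM of the 3 WT libraries. Among the 14 chaperones and folding enzymes the red symbols lie to the right of the grey symbols except for Pdia4, whereas Xbp1, Chac1 and Asns have the circle of Nr2e3-/- replicate 1 among the grey symbols.

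Among the sensors, Ern1, the kinase and endoribonuclease that splices Xbp1, had 81.1, 55.2 and 69.9 CPM in WT and 67.3, 131 and 95.3 CPM in Nr2e3-/- tumors. Replicates 2 and 3 of Nr2e3-/- were above all WT libraries and replicate 1 lay within them, so the groups overlapped. The log2 fold change was 0.51 (SE 0.25, adjusted p = 0.284, edgeR). Without Nr2e3-/- replicate 1 it was 0.73 (SE 0.20, adjusted p = 0.0455, edgeR, with a range of 0.0455 to 0.568 over all alternatives). Eif2ak3, which encodes the eIF2α kinase PERK, had 28.1, 21.7 and 19.7 CPM in WT and 32.0, 43.9 and 35.5 CPM in Nr2e3-/- tumors. All 3 Nr2e3-/- libraries were above the WT libraries. Its log2 fold change was 0.68 (SE 0.18, adjusted p = 0.124, edgeR), and Gm43292, an uncharacterised transcript on the opposite strand, shares 485 exon bases with it. Atf6, the sensor that becomes a transcription factor after cleavage in the Golgi, had 131, 124 and 135 CPM in WT and 150.3, 117 and 149 CPM in Nr2e3-/- tumors. The groups overlapped, and the log2 fold change of 0.09 was smaller than its SE of 0.13 (adjusted p = 0.684, edgeR).

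Xbp1, on chromosome 11 of GRCm38 (5520659 to 5525893, plus strand), encodes the transcription factor made after IRE1 splicing. It had 349.9, 300.0 and 289 CPM in WT and 342, 720.2 and 785 CPM in Nr2e3-/- tumors. Replicate 1 of Nr2e3-/- was within the WT range, and the other Nr2e3-/- libraries were more than 2-fold above the highest WT library. The log2 fold change was 0.98 (SE 0.30, adjusted p = 0.145, edgeR) with all libraries and 1.27 (SE 0.13, adjusted p = 0.00324, edgeR) without replicate 1, and adjusted p-values ranged from 0.00324 to 0.407 over the alternatives. Atf4, the transcription factor whose translation rises when eIF2α is phosphorylated, had 112, 121 and 98.6 CPM in WT and 79.7, 146 and 138 CPM in Nr2e3-/- tumors. The lowest and the highest of the 6 libraries were both Nr2e3-/-, and the log2 fold change was 0.13 (SE 0.23, adjusted p = 0.752, edgeR). Replicates 2 and 3 of Nr2e3-/- were above all WT libraries. Without replicate 1 the log2 fold change of Atf4 was 0.37 (SE 0.12, adjusted p = 0.0681, edgeR, and 0.0681 to 0.965 over the alternatives).

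The stress-induced transcription factors Ddit3 and Atf3 and the liver factor Creb3l3 had overlapping groups. Ddit3, which encodes the pro-apoptotic factor CHOP, had 15.4, 14.9 and 9.85 CPM in WT and 11.7, 11.2 and 10 CPM in Nr2e3-/- tumors. All 3 Nr2e3-/- libraries lay within the WT range, with a log2 fold change of -0.28 (SE 0.19, adjusted p = 0.414, edgeR), and 68 of its exon bases are shared with Mars on the opposite strand. Atf3, an early stress gene, had 5.18, 8.39 and 3.78 CPM in WT and 2.45, 14 and 3.57 CPM in Nr2e3-/- tumors. Nr2e3-/- replicate 2 was the highest library and Nr2e3-/- replicate 1 the lowest, and the log2 fold change of 0.23 had a SE of 0.64 (adjusted p = 0.852, edgeR). Without replicate 1 it was 0.63 (SE 0.56, adjusted p = 0.452, edgeR). Creb3l3 encodes CREBH, an ER-bound factor made mainly in liver and intestine, and had 257, 312 and 242 CPM in WT and 239, 207 and 283 CPM in Nr2e3-/- tumors. Nr2e3-/- replicate 2 was the lowest library and WT replicate 2 the highest, and the log2 fold change was -0.15 (SE 0.16, adjusted p = 0.592, edgeR). Over the 8 sensors and transcription factors, 2 were higher at an unadjusted p-value under 0.05 (Eif2ak3 and Xbp1, background 11.8%). The median log2 fold change was 0.18, which moved to 0.50 without Nr2e3-/- replicate 1.

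**Figure D2:**
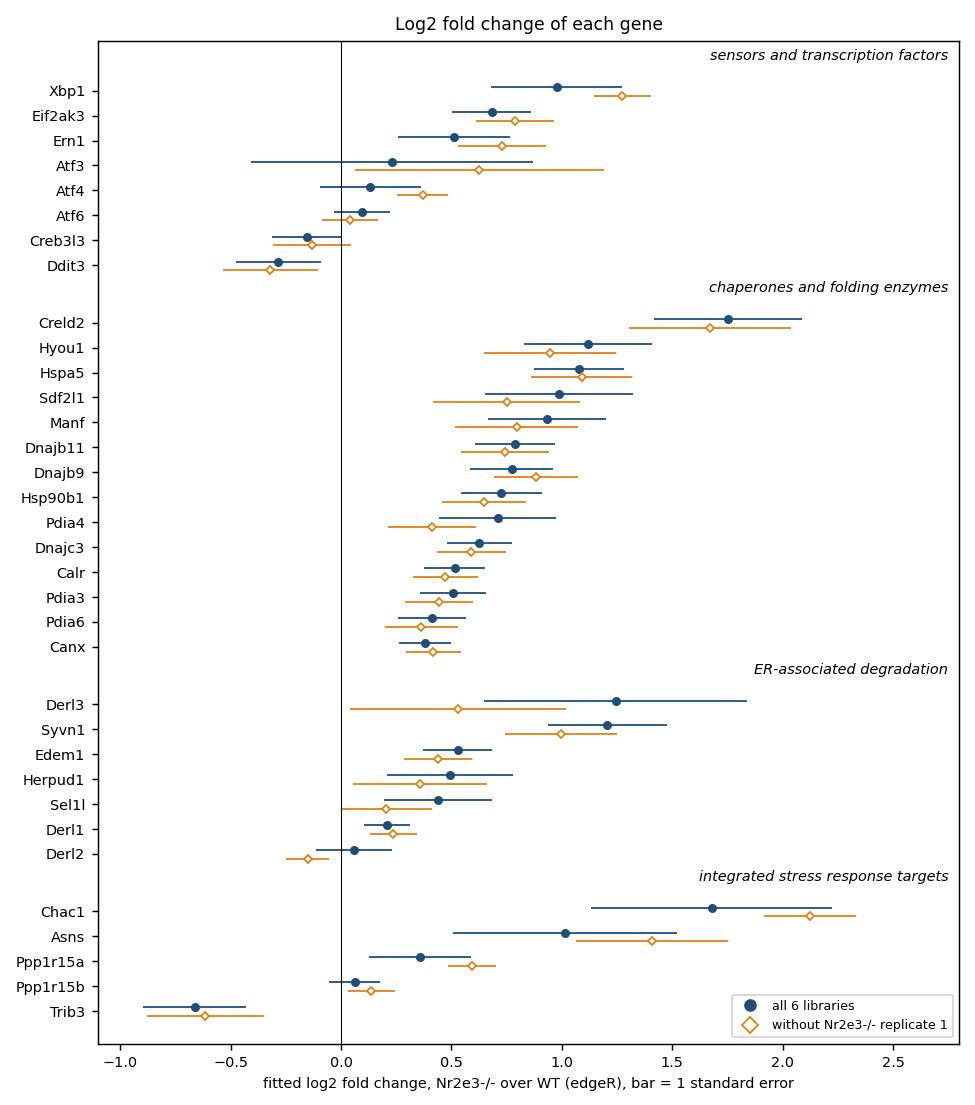
Fitted log2 fold changes of Nr2e3-/- over WT from edgeR, with all 6 libraries (filled circles) and without Nr2e3-/- replicate 1 (open diamonds), ordered by size within each role. Bars are 1 standard error (SE). Leaving out replicate 1 moved Chac1, Atf3, Asns and Xbp1 to the right and Derl3, Pdia4 and Sdf2l1 to the left.

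Chaperones and folding enzymes formed the most uniform group. All 14 had a positive log2 fold change with an unadjusted p-value under 0.05 (background 11.8%), from 0.38 (Canx) to 1.75 (Creld2). In 13 of them the groups did not overlap (background 13.9%). Without Nr2e3-/- replicate 1 all 14 were still above 0, from 0.36 (Pdia6) to 1.67 (Creld2), and 11 kept an unadjusted p-value under 0.05 (37.7% of all genes passed it in either direction), while Pdia4, Pdia6 and Sdf2l1 did not. Hspa5 encodes BiP, the ER Hsp70 that binds unfolded chains and keeps the sensors inactive, and lies on chromosome 2 (34771970 to 34777547, plus strand). It had 1799, 1279 and 1209 CPM in WT and 3007, 2559 and 3490.1 CPM in Nr2e3-/- tumors, or 1429 ± 323 and 3019 ± 466 CPM (SD, n = 3). Every Nr2e3-/- library was above every WT library, by a fitted 2.11-fold (log2 fold change 1.08, SE 0.20, adjusted p = 0.0930, edgeR). It had the smallest p-value among the members and, without Nr2e3-/- replicate 1, a log2 fold change of 1.09 (adjusted p = 0.0208, edgeR, and 6.21e-05 to 0.338 over the alternatives).

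Creld2, an ER-resident protein with disulfide isomerase activity, is on chromosome 15 (88819646 to 88826683, plus strand). It had 83, 52.1 and 41.4 CPM in WT and 221, 125 and 248 CPM in Nr2e3-/- tumors. The lowest Nr2e3-/- library was above the highest WT library, and the fitted 3.36-fold difference was the largest among the 34 genes (log2 fold change 1.75, SE 0.34, adjusted p = 0.0930, edgeR, and 2.38e-05 to 0.338 over the alternatives). Hsp90b1 encodes GRP94, the ER member of the Hsp90 family. Its levels were 1358, 1029 and 1011 CPM in WT and 2096, 1537 and 1988 CPM in Nr2e3-/- tumors, without overlap (log2 fold change 0.73, SE 0.18, adjusted p = 0.118, edgeR). Sdf2l1, which works with the co-chaperone Dnajb11 to keep BiP clients from aggregating, had 59.1, 31.5 and 25.8 CPM in WT and 101, 60.1 and 69.7 CPM in Nr2e3-/- tumors. The highest WT library and the lowest Nr2e3-/- library were close but did not cross, and the log2 fold change was 0.99 (SE 0.34, adjusted p = 0.170, edgeR).

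The J-domain proteins that pass clients to BiP were higher without overlap too. Dnajb9 had 134, 95.0 and 99.5 CPM in WT and 159, 174 and 228 CPM in Nr2e3-/- tumors (log2 fold change 0.77, SE 0.19, adjusted p = 0.114, edgeR). For Dnajb11 the levels were 132, 103 and 92.9 CPM in WT and 203, 153 and 212 CPM in Nr2e3-/- tumors (log2 fold change 0.79, SE 0.18, adjusted p = 0.107, edgeR). Dnajc3, which also inhibits eIF2α kinases, had 365, 292 and 334 CPM in WT and 539.8, 432 and 557 CPM in Nr2e3-/- tumors (log2 fold change 0.63, SE 0.15, adjusted p = 0.109, edgeR). In all of these the Nr2e3-/- libraries were above the WT libraries. Hyou1, the large ER Hsp70 relative that exchanges the nucleotide of BiP, had a log2 fold change of 1.12, and Manf, a small protein that binds BiP and is secreted under stress, of 0.93. The lectin chaperones Calr and Canx, which hold glycoproteins during folding, had smaller log2 fold changes of 0.51 and 0.38. The disulfide isomerases Pdia3, Pdia4 and Pdia6 had 0.51, 0.71 and 0.41. Pdia4 was the chaperone whose groups overlapped, with 315, 213 and 221 CPM in WT and 564, 298 and 363 CPM in Nr2e3-/- tumors, WT replicate 1 being above Nr2e3-/- replicate 2, and a log2 fold change of 0.41 without Nr2e3-/- replicate 1. WT replicate 1 had the highest WT level for all 14 chaperones, and Nr2e3-/- replicate 2 the lowest Nr2e3-/- level for 11 of them. Hsp90b1 shares 415 exon bases with the pseudogene 1810014B01Rik and Manf shares 166 with 4930524O07Rik and 146 with Dcaf1, all on the opposite strand. Reads of these pairs cannot be told apart if the counting did not use strand. On the same strand, Hsp90b1 shares 133 exon bases with Gm25745 and 84 with Gm15344, and Manf shares 14 with Rbm15b. Strand would not separate the reads of those pairs.

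Promoters of ER chaperone genes are known for the ER stress response element (ERSE), a CCAAT box and a CCACG box kept 9 bases apart, to which NF-Y and ATF6 or XBP1 bind. Promoter windows from RefSeq (GRCm38.p6, 250 bases before to 50 after the start) were found for 29 of the 34 members, all but Atf6, Derl1, Hyou1, Manf and Ppp1r15b. The fixed letters of both boxes with any 9 bases between them were searched on both strands and occurred in the windows of 9 of these 29 members and of 37 of all 27025 genes with a window (0.137%). Of the 9 members that held them, 7 are chaperones, the role in which all genes were higher. Since the element is known from ER chaperone promoters, finding it in these members is not a test. The sites follow with the fixed letters in capitals, each read 5′ to 3′ on the strand that holds the element.
Hspa5: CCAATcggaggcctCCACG
Creld2: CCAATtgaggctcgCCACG
Hsp90b1, nearer site: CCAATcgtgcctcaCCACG
Hsp90b1, farther site: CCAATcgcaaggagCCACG
Dnajc3: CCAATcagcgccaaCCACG
Pdia6: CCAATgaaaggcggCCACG
Calr: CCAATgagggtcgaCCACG
Canx: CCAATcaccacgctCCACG
Syvn1: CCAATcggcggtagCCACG
Derl3: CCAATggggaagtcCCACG
The Hspa5 site is at chr2:34772025-34772043 on the plus strand, and its first base lies 65 bases before the RefSeq start (34772090). That start is 120 bases downstream of the GENCODE M21 gene start given above, so the site lies inside the gene as GENCODE draws it. That of Creld2 is at chr15:88819520-88819538 on the minus strand, against the direction of the gene. Read along the gene, it begins 126 bases before the start. Hsp90b1 had a site on each strand, at chr10:86705533-86705551 (plus) and chr10:86705638-86705656 (minus). Read along the gene, the sites of the other members began between 44 (Syvn1) and 162 (Calr) bases before the start. All 9 members with the letters had a positive log2 fold change, with a median of 0.73. Of the 20 members with a window that lacked them, 17 had a positive log2 fold change, and the median was 0.51. Without Nr2e3-/- replicate 1 these medians were 0.59 and 0.52. The 7 chaperones that held the letters ran from 0.38 (Canx) to 1.75 (Creld2). Chaperones with a window that lacked them had 0.77 (Dnajb9), 0.79 (Dnajb11), 0.51 (Pdia3), 0.71 (Pdia4) and 0.99 (Sdf2l1). The part of the letters in these differences was not tested. The 11 other genes that held the letters and were tested had a median of 0.11, and 7 of these were above 0.

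The 250 bases before the RefSeq start of Hspa5 and of Creld2, the members with the smallest p-values, are given in full on the plus strand. Capitals mark the ERSE letters in both and, in Hspa5, the core of the unfolded protein response element (UPRE), TGACGTG.
Hspa5, chr2:34771840-34772089: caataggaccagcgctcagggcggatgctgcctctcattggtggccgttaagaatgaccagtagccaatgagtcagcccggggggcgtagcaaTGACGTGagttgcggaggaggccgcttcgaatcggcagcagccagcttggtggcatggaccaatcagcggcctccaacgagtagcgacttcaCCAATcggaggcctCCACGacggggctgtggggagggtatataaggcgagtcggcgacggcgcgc
Creld2, chr15:88819396-88819645: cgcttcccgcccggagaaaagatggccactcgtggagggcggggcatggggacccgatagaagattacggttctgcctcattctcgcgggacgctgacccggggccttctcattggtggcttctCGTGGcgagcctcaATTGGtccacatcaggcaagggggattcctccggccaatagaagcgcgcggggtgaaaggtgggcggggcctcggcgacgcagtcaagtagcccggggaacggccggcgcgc
In Creld2 the element reads as its complement, CGTGG to ATTGG. The UPRE core was in the window of Hspa5 alone among the members and in 2.22% of all genes with a window. A related element, ERSE-II (ATTGG and CCACG with any 1 base between them), occurred in 12 of the 27025 genes (0.0444%), among them Dnajb11 and Herpud1. Both are shown with 6 flanking bases on each side.
Dnajb11: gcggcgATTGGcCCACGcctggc
Herpud1: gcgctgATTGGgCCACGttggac
The Herpud1 site begins 52 bases before the start (chr8:94386371-94386393 with its flanks, plus strand), and that of Dnajb11 at base 8 of the transcript (chr16:22857846-22857868 with its flanks, plus strand). A match of letters describes these windows, and binding to these sites was not measured here.

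**Figure D3:**
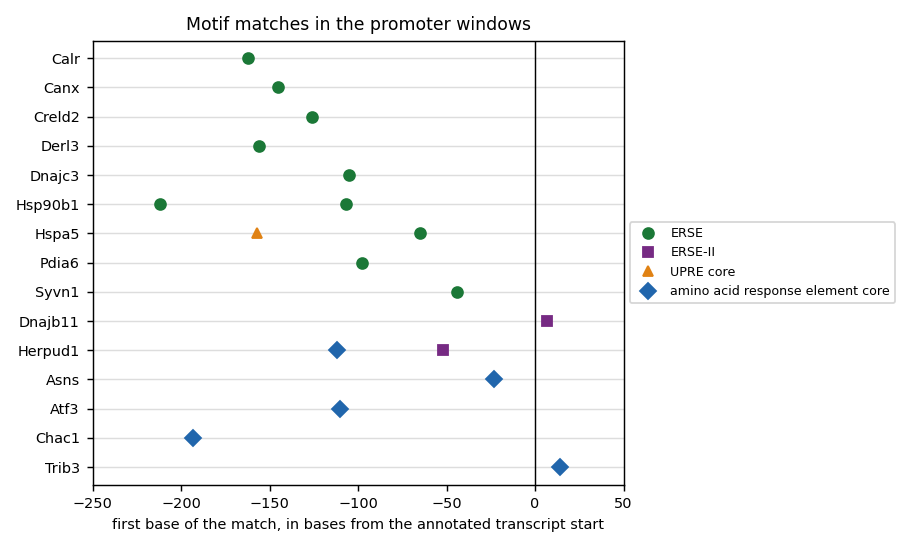
Positions of the motif matches in the 300-base promoter windows of the members that held any. The x axis is the first base of each match, read along the gene, in bases from the annotated start (negative values lie before it). ERSE matches lie between 212 and 44 bases before the start, and the amino acid response element core is in Asns, Atf3, Chac1, Herpud1 and Trib3.

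ERAD genes followed the chaperones in part. Syvn1 encodes HRD1, the ubiquitin ligase of the main ERAD complex, on chromosome 19 (6046576 to 6053712, plus strand). It had 138, 98.4 and 88.6 CPM in WT and 320.2, 166 and 264 CPM in Nr2e3-/- tumors, without overlap (log2 fold change 1.21, SE 0.27, adjusted p = 0.102, edgeR, and 0.00123 to 0.342 over the alternatives). Mrpl49 on the opposite strand shares 91 exon bases with it. Sel1l, the partner that holds HRD1 in place, had a log2 fold change of 0.44, with 223, 189.5 and 198 CPM in WT and 362, 178 and 288 CPM in Nr2e3-/- tumors. Herpud1, a stress-induced scaffold of that complex, had 554, 559.9 and 487 CPM in WT and 896, 425 and 935 CPM in Nr2e3-/- tumors (log2 fold change 0.49, SE 0.29, adjusted p = 0.345, edgeR). In both Sel1l and Herpud1, replicates 1 and 3 of Nr2e3-/- were above all WT libraries and replicate 2 below all of them, and without replicate 1 the log2 fold changes were 0.20 and 0.36. Edem1, which sends glycoproteins with trimmed mannose to degradation, was higher without overlap, with a log2 fold change of 0.53 (SE 0.16, adjusted p = 0.140, edgeR).

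The Derlins, membrane proteins of the channel through which substrates leave the ER, differed among themselves. Derl3, the family member most tied to secretory cells, had 6.72, 2.67 and 2.95 CPM in WT and 17.7, 7.98 and 3.68 CPM in Nr2e3-/- tumors. Its groups overlapped, with Nr2e3-/- replicate 1 the highest library (log2 fold change 1.24, SE 0.60, adjusted p = 0.274, edgeR), and without that library the log2 fold change was 0.53. Derl1 and Derl2 had log2 fold changes of 0.21 and 0.06, and that of Derl2 was -0.15 without Nr2e3-/- replicate 1. Over the 7 ERAD genes, 2 were higher at an unadjusted p-value under 0.05 (Syvn1 and Edem1, background 11.8%), none was lower (background 9.72%), and the median log2 fold change was 0.49.

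Targets of the integrated stress response went in both directions. Chac1, which breaks down glutathione, had 2.92, 3.86 and 3.33 CPM in WT and 2.98, 17.2 and 12.0 CPM in Nr2e3-/- tumors. Nr2e3-/- replicate 1 lay among the WT libraries and the others were more than 3-fold above the highest of them. The log2 fold change was 1.68 (SE 0.55, adjusted p = 0.161, edgeR) and, without replicate 1, 2.12 (SE 0.21, adjusted p = 0.00298, edgeR, with a range of 0.00298 to 0.404 over the alternatives). Asns, which makes asparagine, had 15.7, 9.68 and 7.01 CPM in WT and 8.28, 34.5 and 22.3 CPM in Nr2e3-/- tumors, again with replicates 2 and 3 above the WT range and replicate 1 within it (log2 fold change 1.01, SE 0.51, adjusted p = 0.286, edgeR). Without replicate 1 its log2 fold change was 1.41 (adjusted p = 0.0330, edgeR, and 0.0330 to 0.564 over the alternatives). Trib3, a pseudokinase induced by ATF4 and CHOP, had 18.2, 27.6 and 15.2 CPM in WT and 12.1, 14.6 and 11.7 CPM in Nr2e3-/- tumors. It was the member whose Nr2e3-/- libraries all lay below the WT libraries (log2 fold change -0.66, SE 0.23, adjusted p = 0.175, edgeR, and 0.0995 to 0.445 over the alternatives).

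Ppp1r15a encodes GADD34, the stress-induced subunit that directs a phosphatase to eIF2α, and had 10.4, 10.4 and 10.8 CPM in WT and 8.74, 16.1 and 15.5 CPM in Nr2e3-/- tumors. Replicate 1 was below and replicates 2 and 3 were above the narrow WT range (log2 fold change 0.36, SE 0.23, adjusted p = 0.392, edgeR), and without replicate 1 the log2 fold change was 0.59 (adjusted p = 0.0141, edgeR, and 0.0141 to 0.698 over the alternatives). Its constitutive counterpart Ppp1r15b had a log2 fold change of 0.06 (SE 0.12), and shares 640 exon bases with Gm26616 on the opposite strand. Of the 5 genes, Asns, Chac1 and Trib3 held the core of the amino acid response element, TGATGNAA, in their windows. With Atf3 and Herpud1 these were 5 of 29 members, and 4.51% of all genes with a window held it. The 3 sites are shown with 6 flanking bases on each side and the fixed letters in capitals, since these genes carry the same element and had log2 fold changes of opposite sign.
Asns: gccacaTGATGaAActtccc
Chac1: caggagTGATGcAAcggcag
Trib3: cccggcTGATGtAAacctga
With their flanks they lie at chr6:7693219-7693238 (minus strand), chr2:119351043-119351062 (minus strand) and chr2:152344033-152344052 (plus strand).

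Each Nr2e3-/- library had its own balance of these roles. The median difference from the WT mean over the 14 chaperones was 0.90, 0.45 and 0.88 on the log2 scale in Nr2e3-/- replicates 1, 2 and 3, and 0.30, -0.13 and -0.17 in the WT replicates. The 7 ERAD genes had 0.75, 0.15 and 0.51 in Nr2e3-/- and 0.14, -0.10 and -0.08 in WT. In both roles replicate 2 was the lowest Nr2e3-/- library. The 5 integrated stress response targets had -0.27, 0.61 and 0.55 in Nr2e3-/- and -0.08, 0.02 and -0.01 in WT, and the 8 sensors and transcription factors -0.09, 0.67 and 0.26 in Nr2e3-/- and 0.09, 0.04 and -0.16 in WT. Here replicate 1 was the lowest library of all in the targets and replicate 2 the highest in both roles. Nr2e3-/- replicate 1 was above every WT library for all 14 chaperones and all 7 ERAD genes, for 2 of 8 sensors and transcription factors (Atf6 and Eif2ak3) and for 0 of 5 integrated stress response targets (32.7% of all genes lay above every WT library in it). The replicate 2 library was above every WT library for 13 of 14 chaperones, 4 of 7 ERAD genes, 5 of 8 sensors and transcription factors and 3 of 5 targets (39.3% of all genes). Replicate 3 was above them for 14 of 14, 5 of 7, 5 of 8 and 4 of 5 genes of these roles (37.5% of all genes). These are descriptions of single libraries, and the difference between roles was not tested.

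**Figure D4:**
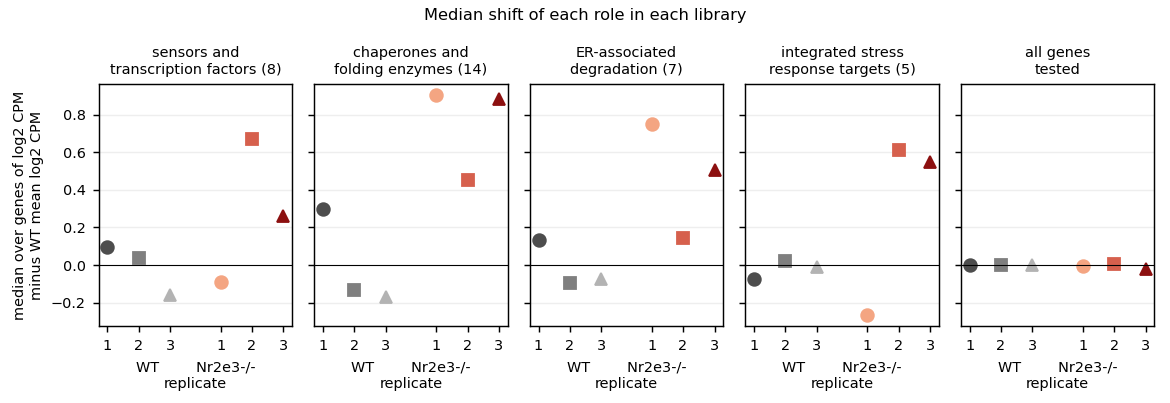
Median over the genes of each role of log2 CPM minus the mean log2 CPM of the WT libraries, with 1 symbol per library and the number of genes in each title. Nr2e3-/- replicate 1 is at 0.90 for chaperones and -0.27 for integrated stress response targets, and the libraries lie from -0.02 to 0.01 over all genes tested.

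Levels can be compared between genes only per length. Per kb of exon in GENCODE M21, the highest member in WT tumors was Hspa5 (338 ± 76.3 CPM per kb, SD, n = 3), followed by Hsp90b1 (281 ± 48.4), Calr (265 ± 35.2), Herpud1 (229 ± 17.3) and Pdia3 (178 ± 25.1). Hsp90b1 and Calr differed by less than the SD of either. The 3 lowest were Atf3 (2.69 ± 1.10), Derl3 (2.06 ± 1.13) and Chac1 (2.06 ± 0.287), which differed by less than the SD of Atf3 or Derl3. Among the sensors, Atf6 had 14.1 ± 0.601, Ern1 8.41 ± 1.59 and Eif2ak3 3.85 ± 0.733 CPM per kb in WT tumors. In Nr2e3-/- tumors Hspa5 had 714 ± 110.1 CPM per kb, Xbp1 189.6 ± 73.8 (WT 96.4 ± 9.95) and Creld2 145 ± 47.6 (WT 43.1 ± 15.8).

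**Figure D5:**
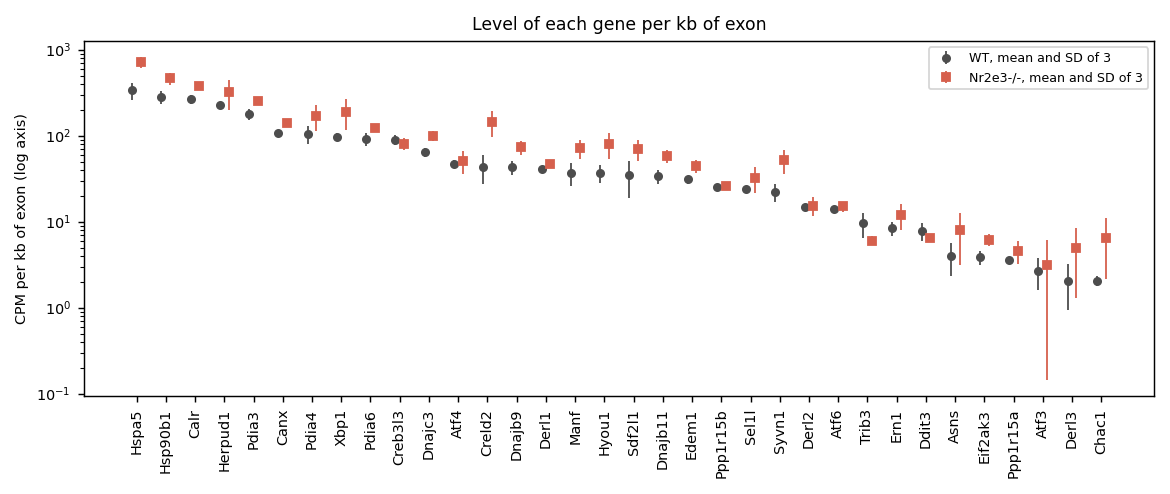
Mean CPM per kb of exon in WT (grey circles) and Nr2e3-/- tumors (red squares) on a log axis, ordered by the WT level, with bars for the SD of 3 libraries. Members span from 338 CPM per kb (Hspa5) to 2.06 CPM per kb (Chac1) in WT tumors.

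The wider pathway was described with 5 further lists of 134 genes, of which 132 were tested. At an unadjusted p-value under 0.05, 52 were higher and 3 lower (background 11.8% and 9.72%), none passed an adjusted p-value of 0.05 in edgeR, and the median log2 fold change was 0.29. Without Nr2e3-/- replicate 1, edgeR called 36 of them higher and 1 lower at an adjusted p-value under 0.05 (12.2% of all genes were called higher). The higher calls were 6 regulators, 4 folding and redox enzymes, 4 ERAD genes, 8 translocation and glycosylation genes and 14 ATF4 and CHOP targets. Genes of ER translocation and glycosylation were the most uniform, with 30 of 30 above 0, 21 of 30 higher at an unadjusted p-value under 0.05 (background 11.8%) and a median of 0.44. Sec61b, a subunit of the channel through which new chains enter the ER, had 26.0, 19.8 and 19.0 CPM in WT and 27.7, 26.1 and 29.2 CPM in Nr2e3-/- tumors, without overlap (log2 fold change 0.36). The smallest p-values there were those of Sec61g (log2 fold change 1.81, at most 2.22 CPM in any library) and of Srprb, a subunit of the signal recognition particle receptor (0.74). Among 26 other folding and redox enzymes, 9 were higher and 1 lower at an unadjusted p-value under 0.05 (background 11.8% and 9.72%), with a median of 0.23. Kdelr2, the receptor that returns chaperones from the Golgi, had 108, 83.3 and 89.6 CPM in WT and 138, 162 and 221 CPM in Nr2e3-/- tumors, without overlap (log2 fold change 0.89, adjusted p = 0.0999, edgeR). Log2 fold changes were 0.63 for Mogs, the first glucosidase of N-glycan trimming, 0.61 for the isomerase Pdia5, 0.31 for the isomerase P4hb and 0.40 for Ero1l, the oxidase that recharges these isomerases.

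Of 23 further ERAD genes, 7 were higher and 0 lower at an unadjusted p-value under 0.05 (background 11.8% and 9.72%, median 0.24), led by the ubiquitin-conjugating enzyme Ube2g2 (42.4, 36.0 and 31.1 CPM in WT and 63.5, 81.8 and 99.7 CPM in Nr2e3-/- tumors, log2 fold change 1.16, adjusted p = 0.0930, edgeR) and by Ubxn4 (0.57). Of 21 other regulators, 4 were higher and 1 lower (background 11.8% and 9.72%, median 0.28). Map3k5, a kinase that acts downstream of IRE1, had 59.7, 67.5 and 64.2 CPM in WT and 87.8, 149 and 157 CPM in Nr2e3-/- tumors (log2 fold change 1.04), and Eif2s1, which encodes eIF2α, had 0.45. The ATF6 relative Atf6b had 0.34 and the protease Mbtps1, which cuts ATF6, -0.09. Of 32 other ATF4 and CHOP targets tested, 11 were higher and 1 lower (background 11.8% and 9.72%). The median was 0.37, and 0.57 without Nr2e3-/- replicate 1. The lower one was Vldlr, a lipoprotein receptor (5.03, 5.21 and 4.72 CPM in WT and 2.05, 0.334 and 0.757 CPM in Nr2e3-/- tumors, log2 fold change -2.33), and the smallest p-value was that of the tryptophan tRNA synthetase Wars (21.9, 21.7 and 17.4 CPM in WT and 33.9, 38.5 and 41.7 CPM in Nr2e3-/- tumors, log2 fold change 0.90, adjusted p = 0.0844, edgeR). The secreted stress hormones Fgf21 and Gdf15 had log2 fold changes of 0.16 and -0.05, the cystine transporter Slc7a11 0.37, and the serine enzyme Psat1 0.12, each smaller than its SE. Ddit4 and Sesn2, inhibitors of mTORC1 signaling, had 0.79 and 0.47. Among 11 liver targets of CREBH, 1 was higher at an unadjusted p-value under 0.05 (Crp, log2 fold change 0.91, background 11.8%), 0 were lower (background 9.72%) and the median was 0.35. Without Nr2e3-/- replicate 1, 4 were called higher at an adjusted p-value under 0.05 in edgeR (background 12.2%).

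Markers of cell types were measured beside these values, since secretory cells other than hepatocytes carry high levels of ER genes. Hepatocyte markers were abundant in every library. Over 8 of 8 genes they summed to 128646 to 158102 CPM in WT tumors. The sums were 133619, 122949 and 112772 CPM in Nr2e3-/- replicates 1, 2 and 3, below every WT library in replicates 2 and 3. Alb, the most abundant of them, had a log2 fold change of -0.27. Of the 8 genes, 4 were above 0 and 4 below, with a median of 0.01. At an unadjusted p-value under 0.05, 1 of 8 was higher (Hnf4a, log2 fold change 0.50, background 11.8%) and 0 were lower (background 9.72%). Among plasma cell markers, Sdc1, which hepatocytes also express, had 149, 168 and 138 CPM in WT and 162, 293 and 189 CPM in Nr2e3-/- tumors. The antibody joining chain gene Jchain had 20.9, 1.83 and 4.40 CPM in WT and 7.28, 10.7 and 16.7 CPM in Nr2e3-/- tumors, with WT replicate 1 the highest library. Tnfrsf17 had 0 counts in 5 of 6 libraries and Mzb1 had at most 0.757 CPM. Of 13 pancreatic acinar markers, 9 had 0 counts in every library and the sum was 22.1 to 34.7 CPM in WT and 24.3 to 33.6 CPM in Nr2e3-/- tumors, nearly all of it from Cela1. Apart from Jchain, Sdc1 and Cela1, the markers of those secretory cells were at or near 0. Some other markers split by the same Nr2e3-/- libraries as Xbp1, Chac1 and Asns. Neutrophil markers summed to 1.77 to 3.28 CPM in WT and 2.52, 24.2 and 15 CPM in Nr2e3-/- replicates 1, 2 and 3, with S100a8, S100a9 and Cxcr2 (3 of 3 tested) higher at an unadjusted p-value under 0.05 (background 11.8%) and Mpo and Elane at or near 0. Biliary markers summed to 68.8 to 128 CPM in WT and 82.9, 439 and 196 CPM in Nr2e3-/- tumors, most of it from Spp1. The list as a whole did not split this way. Over the 6 biliary markers tested, the median log2 difference from the WT mean was 0.16, -0.19 and 0.46 in Nr2e3-/- replicates 1, 2 and 3. In replicate 2, 2 of the 6 were above every WT library (39.3% of all genes). Stellate cell and fibroblast markers summed to 251 to 272 CPM in WT and 287, 170.1 and 162 CPM in Nr2e3-/- tumors, below every WT library in replicates 2 and 3. Without replicate 1, Col1a2, Col3a1 and Dcn (3 of 8) were called lower at an adjusted p-value under 0.05 in edgeR. So were 1323 of the 13572 genes tested with all libraries. Macrophage markers were high in Nr2e3-/- replicate 2 alone, with sums of 305 to 388 CPM in WT and 265, 685 and 348 CPM in Nr2e3-/- tumors and 8 of 8 genes above every WT library in replicate 2. Endothelial markers summed to 320.4 to 337 and 286 to 344 CPM, and T and NK cell markers to 2.34 to 8.93 and 2.43 to 7.17 CPM, in WT and Nr2e3-/- tumors. The part of these cells in the differences of Xbp1, Chac1 and Asns was not tested.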

How the data were processed

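RNA-seq counts of liver tumors from 3 WT and 3 Nr2e3-/- mice were analysed. The authors aligned single-end reads of TruSeq libraries to mm10 with TopHat and deposited whole-number counts per gene made with featureCounts. The processing notes also list Bowtie2 2.4.5, SAMtools 1.14 and DESeq. The gene annotation and the strand setting of the counting are not given in the sources used here. The other deposited tables, with normalized values and with the authors' own fold changes and p-values, were not used here.

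Genes were filtered with filterByExpr (minimum count 10), TMM-scaled, and the genotypes compared by edgeR's quasi-likelihood F test (edgeR 4.0.16, R 4.3.3), two-sided, with Benjamini-Hochberg adjustment over 13572 genes and no covariate. The standard error is the log2 fold change divided by the square root of F. Alternatives were RLE and upper quartile scaling, 2 other filters, DESeq2 1.42.0, limma-voom 3.58.1 with sample quality weights, a replicate block and the omission of each library. The scripts were tested on simulated data. Log2 CPM used a prior count of 2. Exon lengths and gene positions were taken from GENCODE M21 (GRCm38) and promoter sequences from RefSeq.

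The 34 genes, their 4 roles and the other lists were chosen with earlier results of these data known. Levels in every library are given for 18 genes named in the rule (the 8 sensors and transcription factors, Hspa5, Hsp90b1, Sdf2l1, Dnajb9, Herpud1, Derl3, Trib3, Chac1, Asns and Ppp1r15a) and for the 6 members with the smallest p-values, and Pdia4 and Sel1l were added after their values were seen. From the other pathway lists, 12 genes were named in the rule (Atf6b, Mbtps1, P4hb, Ero1l, Sec61b, Kdelr2, Fgf21, Gdf15, Slc7a11, Psat1, Ddit4 and Sesn2), with the 2 of smallest p-value in each. From marker, acute phase, heat shock, immediate early, clock and CREBH target lists, up to 3 genes were named by level or p-value, apart from the plasma cell markers and marker genes at or near 0, which were named after their values were seen. The B cell markers are not reported here.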

Additional observations from a re-analysis of the deposited data

How the results depend on the processing

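The number of genes called at an adjusted p-value under 0.05 depended strongly on the method. It was 13 with edgeR on all libraries, 13 with RLE factors, 8 with upper quartile scaling, 7 with at least 10 counts required in every library, 70 with no filter beyond 1 count, 1096 with DESeq2 and 2360 with limma-voom, and it ranged from 0 to 3022 when 1 library was left out, the highest without Nr2e3-/- replicate 1 and 0 without WT replicate 1, WT replicate 3 or Nr2e3-/- replicate 3. Members called went from 0 to 17 with DESeq2 and 16 with limma-voom, and ranged from 0 to 12 over the omissions. At an unadjusted p-value under 0.05, 20 members differed with all libraries and 15 to 22 when 1 was left out (12.2% to 37.7% of all genes), and groups did not overlap, with Nr2e3-/- higher, in 17 to 23 (15.7% to 27.7% of all genes, an alternative chosen after seeing the data), the upper shares being those without Nr2e3-/- replicate 1. Median log2 fold changes ranged over the omissions from 0.52 to 0.64 for the members, 0.087 to 0.50 for sensors and transcription factors (0.50 without Nr2e3-/- replicate 1), 0.66 to 0.93 for chaperones, 0.36 to 0.68 for ERAD and 0.21 to 0.59 for integrated stress response targets. The direction of 30 members held in all 13 alternatives, and that of Atf3, Atf4, Derl2 and Ppp1r15b changed in some. The cause of these changes was not tested.

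Same-numbered libraries did not deviate together, with correlations of -0.08, 0.22 and 0.02 for numbers 1, 2 and 3, so the numbers were not taken as pairs. With the replicate number as a block, edgeR called 0 genes and 0 members at an adjusted p-value under 0.05, 21 members had an unadjusted p-value under 0.05, and the median log2 fold change of the members was 0.52. With 3 libraries a group the precision was limited. The parts of the spread between libraries and of the counts of these genes in it were not tested.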

Other observations

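Cytosolic and mitochondrial heat shock genes, which serve protein folding outside the ER, gave 3 of the 13 genes called across the table. All 13 on the list had a log2 fold change above 0, 10 were higher at an unadjusted p-value under 0.05 (background 11.8%) and the median was 0.85. Hspb1, a small heat shock protein, had 3.53, 4.03 and 3.92 CPM in WT and 11.5, 13.3 and 16.4 CPM in Nr2e3-/- tumors (log2 fold change 1.84, SE 0.18, adjusted p = 0.0340, edgeR). The cytosolic Hsp90 gene Hsp90aa1 had 41.0, 36.1 and 29.1 CPM in WT and 97.3, 104 and 120.2 CPM in Nr2e3-/- tumors (log2 fold change 1.60, SE 0.16, adjusted p = 0.0340, edgeR). Hsph1, an Hsp70 nucleotide exchange factor, had 95.2, 84.0 and 60.6 CPM in WT and 226, 233 and 263 CPM in Nr2e3-/- tumors (log2 fold change 1.59, SE 0.18, adjusted p = 0.0454, edgeR). In all 3 genes every Nr2e3-/- library, replicate 1 included, was above every WT library.

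Acute phase genes of the hepatocyte were high mainly in Nr2e3-/- replicates 2 and 3, with medians of 2.34 and 1.55 above the WT mean on the log2 scale. The median in replicate 1 was 0.40. Replicates 1, 2 and 3 were above every WT library for 7, 13 and 12 of 13 genes (32.7%, 39.3% and 37.5% of all genes). All 13 genes had a log2 fold change above 0, and 10 were higher at an unadjusted p-value under 0.05 (background 11.8%). None passed the adjusted test in edgeR with all libraries and 11 did without Nr2e3-/- replicate 1, all higher (background 12.2%). Saa1, a serum amyloid, had 49.3, 28.0 and 19.9 CPM in WT and 138, 1028 and 1089.8 CPM in Nr2e3-/- tumors (log2 fold change 4.54), and Saa2 had 21.0, 11.3 and 7.77 CPM in WT and 63.1, 783 and 771 CPM in Nr2e3-/- tumors (log2 fold change 5.34). Immediate early genes, which respond to handling and growth signals, had 2 of 12 higher and 3 lower at an unadjusted p-value under 0.05 (background 11.8% and 9.72%), with a median of -0.11 and Dusp1 at -0.48. Clock genes, whose levels follow the time of day, had 1 of 13 higher (Nfil3, log2 fold change 1.97, background 11.8%) and 2 lower (background 9.72%), among them Per3 with 37.1, 44.4 and 46.3 CPM in WT and 31.5, 17.5 and 13.3 CPM in Nr2e3-/- tumors (log2 fold change -1.04). Without Nr2e3-/- replicate 1, 6 of 13 clock genes were called lower and 2 higher at an adjusted p-value under 0.05 in edgeR, and the median went from -0.15 to -0.46. That fit tested 13840 genes. Of the 13572 genes tested with all libraries, it called 1323 lower and 1661 higher.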
